A study of Homo sapiens with 12 samples.

Results

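Elements of 4 families of DNA transposons were followed through immunoprecipitates of the RNA-binding protein ZC3H18 in human melanoma cells. The families were hAT-Tip100, hAT-Blackjack, TcMar-Mariner and TcMar-Tc2 as the repeat annotation names them, and a member was any annotated element of these families for which a library listed reads on the strand of the element itself. There were 18409 such members, of 1511991 elements of the 6 transposable element classes listed in the same way. hAT-Tip100 held 9821 of them in 32 subfamilies, hAT-Blackjack 4115 in 8, TcMar-Mariner 2628 in 5 and TcMar-Tc2 1845 in 8.

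All 12 libraries came from A375, an established human melanoma line, transiently transfected with a V5-tagged construct in the expression plasmid pcDNA3.2. The constructs were Clover, a green fluorescent protein that serves as the control; full-length ZC3H18 (Z18fl); a truncated ZC3H18 (Z18trunc); and the truncated protein with its zinc finger mutated at aromatic residues (Z18truncZnFmut). Each group had 3 libraries. At 24 hours after transfection the cells received 4-thiouridine, a uridine analogue that crosslinks to bound protein under ultraviolet light, and RNA recovered with an antibody to the V5 tag was depleted of ribosomal RNA and made into stranded libraries. The cells keep their own ZC3H18 beside the construct, no input libraries were analysed here, and the sources do not say whether replicates were separate cultures, so p-values measure only the spread between these libraries, which may be technical.

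DNA transposons move by cut and paste: a transposase made by the element binds the inverted repeats at both of its ends, excises it and inserts it elsewhere. The hAT and Tc1/mariner superfamilies have long been immobile in the human genome, and what is left are scattered fossils, many of them short internally deleted copies that never coded for protein. Some were taken into use by the host. The HSMAR1 mariner gave the transposase part of SETMAR, the miniature mariner MADE1 folds into hairpins that became microRNA genes, and pogo-type transposases gave proteins such as POGK. ZC3H18 is a nuclear zinc finger protein that bridges the cap-binding complex and the machinery that hands nuclear transcripts to the RNA exosome.

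The sequences at the ends of the mariners are printed to show traces of inverted repeats. The family names come from the repeat annotation and not from these windows. For copies that the results below turn on, a window of 30 bases near the 5′ end is printed above the reverse complement of a window near the 3′ end, with the bases that agree between both windows in capitals. The copies are an HSMAR2 in an intron of PLEKHA5 (chr12:19208984-19210258, hg38, plus strand) and an HSMAR2 in an intron of TBL1X (chrX:9723586-9724827, plus strand). Of the 30 bases, 20 and 21 agreed. The windows began at bases 2 and 1 from the 5′ and 3′ ends in the PLEKHA5 copy and at bases 1 and 8 in the TBL1X copy.
HSMAR2 PLEKHA5, 5′ end: AGGGGACTTCAAAAatTCatgGaAAAtgga
HSMAR2 PLEKHA5, 3′ end: AGGGGACTTCAAAAcgTCtgtGgAAAaatg
HSMAR2 TBL1X, 5′ end: CTTCAAAAAGTTCATgGAcAtAcatAtTat
HSMAR2 TBL1X, 3′ end: CTTCAAAAAGTTCATtGAaAaAtgaAaTga

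MADE1 consists of little more than such ends. The copy with the most counts was 79 bases long and lay in an exon of the long non-coding RNA MUC20-OT1 at chr3:195699413-195699491 (plus strand), where it holds the microRNA gene MIR570. It is printed with the bases of both mature microRNAs in capitals, followed by the mature RNAs from RefSeq (GRCh38.p14) with the seed, bases 2 to 8, in capitals. Its ends agreed at 27 of 30 bases.
MADE1 at MIR570: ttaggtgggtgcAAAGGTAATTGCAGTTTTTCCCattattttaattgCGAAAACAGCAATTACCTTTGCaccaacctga
miR-570-5p: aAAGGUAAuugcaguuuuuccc
miR-570-3p: cGAAAACAgcaauuaccuuugc

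The non-autonomous hAT elements are shorter and have no coding part. The 4 MER91 copies below, of the hAT-Tip100 family, each carried a call in the comparisons that follow, and capitals mark runs of at least 7 bases that also occur in another of the 4. The MER91B copy lay in a non-coding transcript exon of TPGS1 (chr19:509314-509394), the MER91A copies in an intron of FKBP10 (chr17:41818580-41818667) and outside genes (chr1:229667819-229667934), and the MER91C copy in an intron of DNM1 (chr9:128225390-128225500), all on the plus strand.
MER91B TPGS1: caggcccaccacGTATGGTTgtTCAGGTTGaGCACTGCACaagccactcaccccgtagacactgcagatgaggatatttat
MER91A FKBP10: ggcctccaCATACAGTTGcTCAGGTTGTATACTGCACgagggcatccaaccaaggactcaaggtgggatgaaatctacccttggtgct
MER91A chr1: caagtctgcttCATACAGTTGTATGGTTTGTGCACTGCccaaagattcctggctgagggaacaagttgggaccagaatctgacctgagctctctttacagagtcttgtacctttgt
MER91C DNM1: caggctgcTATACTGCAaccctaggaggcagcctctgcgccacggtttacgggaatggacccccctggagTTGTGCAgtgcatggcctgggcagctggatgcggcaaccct

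Capitals mark the same for the MER63A copies, members of hAT-Blackjack, in an intron of CAPN2 (chr1:223756398-223756586, plus strand) and in a non-coding transcript exon of CLEC18B (chr16:74411904-74412091, minus strand).
MER63A CAPN2: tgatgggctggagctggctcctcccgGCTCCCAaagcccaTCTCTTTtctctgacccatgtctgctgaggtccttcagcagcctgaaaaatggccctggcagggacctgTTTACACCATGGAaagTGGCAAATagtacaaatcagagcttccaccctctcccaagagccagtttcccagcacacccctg
MER63A CLEC18B: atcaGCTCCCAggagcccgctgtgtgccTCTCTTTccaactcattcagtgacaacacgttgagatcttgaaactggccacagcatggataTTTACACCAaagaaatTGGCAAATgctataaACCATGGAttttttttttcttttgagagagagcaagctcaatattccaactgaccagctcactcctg

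The element with the most counts of all was a TcMar-Tc2 copy, Kanga2_a, that lay wholly in coding sequence of POGK (chr1:166850044-166850335, plus strand, 292 bases). Its sequence is shown because it is the only element among the 8 with the most counts that is coding over its whole length, and at 44.2% A and T it is poorer in these bases than the median member of its family at 67.3%.
Kanga2_a POGK: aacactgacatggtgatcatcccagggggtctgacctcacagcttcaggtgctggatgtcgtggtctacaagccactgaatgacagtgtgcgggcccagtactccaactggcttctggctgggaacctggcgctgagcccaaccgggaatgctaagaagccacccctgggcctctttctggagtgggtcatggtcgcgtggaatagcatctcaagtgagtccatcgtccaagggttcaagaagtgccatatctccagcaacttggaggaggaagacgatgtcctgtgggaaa

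The libraries held between 16683132 and 25686948 aligned fragments. Counts are the expected counts that the authors' repeat counter assigned to an element and strand, in which a read that fits several copies is shared among them. Between 65.6% and 78.5% of a library's member counts were reads that mapped uniquely. The members took between 0.563% and 0.875% of the counts on the element strand over the 6 classes, and 51.4% to 57.1% of the reads on members lay on the element strand. Replicate 3 of Z18truncZnFmut stood apart: it listed 10411 members where the other 11 libraries listed 1256 to 3693, and 7358 members (40.0%) were listed in that library alone. Results that rest on it are given with and without it.

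The members are old and thinly covered. The mariners were the longest, with a median length of 243 bases, and the least diverged from their consensus, at a median of 14.3%. The medians of the other families were 145 to 196 bases and 23.6% to 25.6% divergence. Of all members, 7172 lay in introns of a gene on their strand, 6617 outside genes, 4035 antisense to a gene and 585 in exons (at least 50% of the element). Fewer than 10 counts over all 12 libraries fell on 17151 members (93.2%), while the 8 members with the most counts held 16.9% of the total.

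Summed over the 4 families, every construct with ZC3H18 gave more counts per 1000000 aligned fragments (CPM) than Clover. The 3 Clover libraries held 292, 268 and 241 CPM, the Z18fl libraries 345, 357 and 349, the Z18trunc libraries 321, 330 and 403, and the Z18truncZnFmut libraries 300, 313 and 790. No construct library fell among the Clover libraries, although the lowest of Z18truncZnFmut lay close to the highest of Clover. The means were 350.1 ± 5.90 (SD, n = 3) for Z18fl, 351.3 ± 45 for Z18trunc and 467.6 ± 279 for Z18truncZnFmut against 267.1 ± 25.5 for Clover. In the exact permutation test over libraries (two-sided, 3 against 3, where 0.1 is the smallest p the design allows) each of these 3 differences reached p = 0.1. It was 0.194 after Benjamini-Hochberg adjustment over the 35 exact tests of family sums, ratios to related families and intron shares. Exact tests of shares of element counts and of the FordPrefect copies, given further on, were not among these and were not adjusted. Without replicate 3, the difference of Z18truncZnFmut from Clover shrank from 200.4 to 39.4 CPM.

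**Figure D1:**
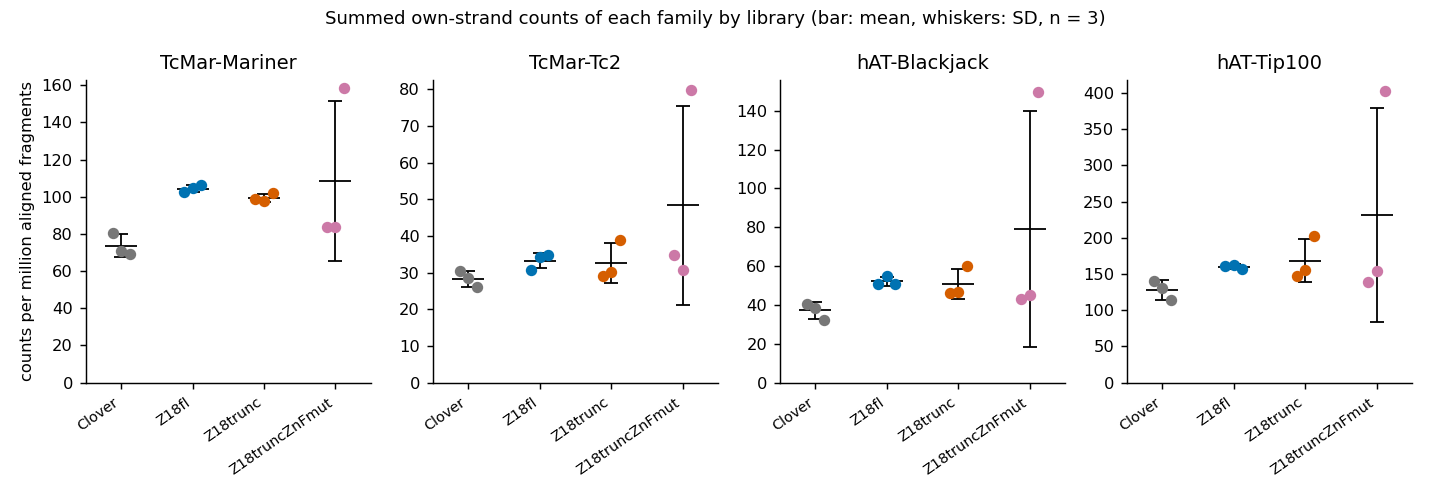
Summed own-strand CPM (y axis) of each family in each library, with the 4 constructs on the x axis. Points are libraries, the bar is the mean and the whiskers are the SD (n = 3). All Z18fl libraries lie above all Clover libraries in the 4 panels, and 1 Z18truncZnFmut library lies far above the other libraries in each.

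By family, the ratio of Z18fl to Clover was highest for the mariners, though the families' ratios were not tested against each other. Single loci described further on weigh on this order. They are the identical FordPrefect copies in hAT-Tip100 and, in TcMar-Tc2, the POGK copy, whose mean CPM was similar in all groups. TcMar-Mariner went from 73.5 ± 6.19 CPM in Clover to 104.4 ± 1.75 in Z18fl (1.42-fold) and 99.3 ± 2.20 in Z18trunc (1.35-fold). hAT-Blackjack went from 37.1 ± 4.24 to 52.1 ± 2.36 and 50.8 ± 7.92 CPM (1.40-fold and 1.37-fold), and hAT-Tip100 from 128.2 ± 13.5 to 160.3 ± 3.16 and 168.5 ± 29.6 (1.25-fold and 1.31-fold). Without replicate 3 of Z18trunc the hAT-Tip100 difference between Z18trunc and Clover went from 40.3 to 23.4 CPM. Without the FordPrefect copies the hAT-Tip100 libraries stood at 113.4, 106.9 and 95.4 CPM in Clover and at 147.6, 148.4 and 142.9 in Z18fl. Those of Z18trunc then stood at 129.6, 138.6 and 174.9 CPM. TcMar-Tc2, the family of the POGK copy, showed the smallest ratio in Z18fl, from 28.2 ± 2.20 to 33.3 ± 2.14 CPM (1.18-fold), and its Z18trunc libraries (mean 32.7 ± 5.43) overlapped those of Clover, with an exact permutation p = 0.3 and a difference of 4.46 CPM, or 1.34 without replicate 3 of Z18trunc. The other 7 of these 8 comparisons had groups that did not overlap and an exact permutation p = 0.1. Between Z18trunc and Z18fl only the mariners did not overlap, with a difference of -5.08 CPM (exact permutation p = 0.1, adjusted 0.194).

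Set against other transposable elements, the sum of the members did not stand above Clover in Z18fl. As a share of the counts on the 6 classes they held 0.697%, 0.693% and 0.633% in Clover and 0.666%, 0.722% and 0.632% in Z18fl, which overlapped (a mean difference of -0.000911 points, exact permutation p = 0.9). By family, some shares lay below every Clover library: TcMar-Mariner in Z18trunc and Z18truncZnFmut (differences of -0.0112 and -0.0207 points) and TcMar-Tc2 in Z18trunc (-0.014 points), each with an exact permutation p = 0.1. In Z18fl the TcMar-Mariner share was instead higher on average, at 0.1980%, 0.2119% and 0.1924% beside 0.1924%, 0.1831% and 0.1815% in Clover. Set against the related families hAT-Charlie and TcMar-Tigger, the members stood at a log2 ratio of -2.62 ± 0.0909 in Clover and -2.85 ± 0.0441 in Z18fl, lower by 0.24 in Z18fl with no overlap between libraries (exact permutation p = 0.1, adjusted 0.194). For Z18trunc the ratio was -2.76 ± 0.0727, which overlapped Clover (exact permutation p = 0.2), and for Z18truncZnFmut -2.64 ± 0.113 (exact permutation p = 1).

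Where the counts lay within genes differed between constructs. In Clover 32.9%, 32.2% and 32.6% of the member counts fell on intronic members. In Z18fl these were 43.8%, 45.9% and 43.8%, in Z18trunc 41.7%, 41.4% and 38.3%, and in Z18truncZnFmut 39.2%, 39.4% and 32.2%. Z18fl and Z18trunc lay above Clover in every library, by 11.9 and 7.89 percentage points on average, and Z18trunc lay below Z18fl, with a difference of -4.03 points, each with an exact permutation p = 0.1 (adjusted 0.194). Z18truncZnFmut overlapped Clover (exact permutation p = 0.3) through its replicate 3, in which the intergenic share reached 35.6% and the antisense share 20.1%. Without the FordPrefect copies described further on, of which 1 counts as intronic, the mean shares were 34.1%, 44.7%, 41.2% and 37.7%.

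The exonic members did not share the excess of that library. Their sum stood at 96.4 ± 4.35 CPM for Clover and at 113.7 ± 2.14 for Z18fl, with 105.5 ± 3.34 for Z18trunc and 97.2 ± 3.98 for Z18truncZnFmut, whose replicate 3 stood at 95.5. The intronic sum was 87.0 ± 8.83 in Clover, 155.8 ± 6.76 in Z18fl and 141.6 ± 11.3 in Z18trunc. Whether the excess of replicate 3 of Z18truncZnFmut in introns and outside genes came from its RNA or its library was not tested.

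**Figure D2:**
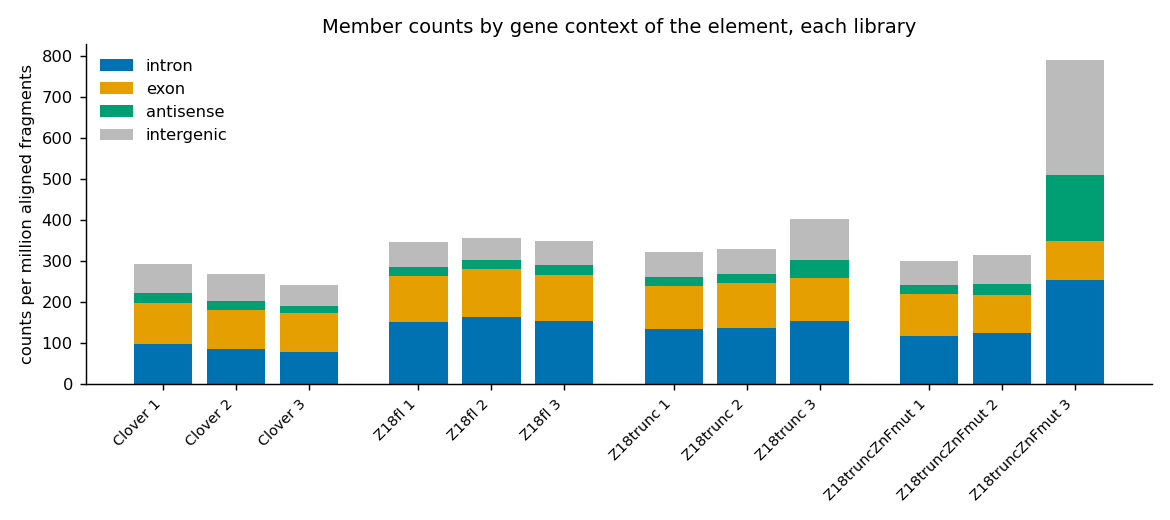
Member CPM (y axis) in each of the 12 libraries (x axis), stacked by the gene context of the element: intron, exon or antisense of a gene, or intergenic. The exonic layer is of similar height in all libraries, the intronic layer is thicker in Z18fl and Z18trunc than in Clover, and the last library exceeds the others in the intronic, antisense and intergenic layers.

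Single loci were tested with edgeR's quasi-likelihood test across all elements with enough counts, scaled by TMM, with Benjamini-Hochberg adjustment over all of them. The fold changes are thus relative to the bulk of tested elements. Scaling by aligned fragments instead moved the median log2 fold change of all tested loci from 0.01 to 0.48 for Z18fl, from -0.03 to 0.39 for Z18trunc and from -0.05 to 0.24 for Z18truncZnFmut against Clover. Few members could be tested: 74 of 18409 in Z18fl against Clover, 70 in Z18trunc, 56 in Z18truncZnFmut, 114 in Z18trunc against Z18fl and 83 in Z18truncZnFmut against Z18trunc. A member with too few counts in every library is silent in what follows. One that passed the filter only through the group where it was high had to differ, and its p-value is not independent of the filter.

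In Z18fl against Clover, 14 members were higher and 19 lower at an adjusted p under 0.05, where 28.3% and 24.7% of all tested elements were called higher and lower. The members' median log2 fold change was -0.02 beside 0.01 over all 12109 elements tested. Scaled by aligned fragments the split was 27 higher and 11 lower of 78 members, beside 4938 and 1703 of all 12897 elements. In Z18trunc against Clover, 4 members were higher and 12 lower (all elements 22.5% and 13.3%). By aligned fragments these were 11 and 6 of 68, beside 4281 and 496 of all 13385. In Z18truncZnFmut against Clover, 1 was higher and 4 lower (12.3% and 4.84%). By aligned fragments these were 3 and 1 of 61, beside 2011 and 133 of all 11365.

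In introns and exons, the members' calls in Z18fl against Clover leaned the same way as those of all elements. Of 15 intronic members tested in Z18fl against Clover 6 were higher and 1 lower (40% and 6.67%, beside 41.8% and 12.9% of all intronic elements), with a median log2 fold change of 0.46. Of 46 exonic members 7 were higher and 14 lower (15.2% and 30.4%, beside 11.6% and 42.4% of all exonic elements), with a median of -0.25. Over all elements the medians were 0.65 in introns and -0.62 in exons. For hAT-Charlie and TcMar-Tigger they were 1.10 and -0.50. In Z18trunc against Clover the members' medians were 0.20 and -0.33, beside 0.47 and -0.49 over all elements. In Z18truncZnFmut they were -0.17 and -0.32, beside 0.22 and -0.38. Of 14 intronic members tested in Z18trunc 2 were higher (14.3%, beside 35.4% of all intronic elements). Too few intergenic members were tested in Z18fl to say how they leaned. Of 9 tested 1 was higher and 3 lower (11.1% and 33.3%, beside 28.1% and 22.1% of all intergenic elements). Among the lower ones was a FordPrefect copy whose call is uncertain, as described further on.

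**Figure D3:**
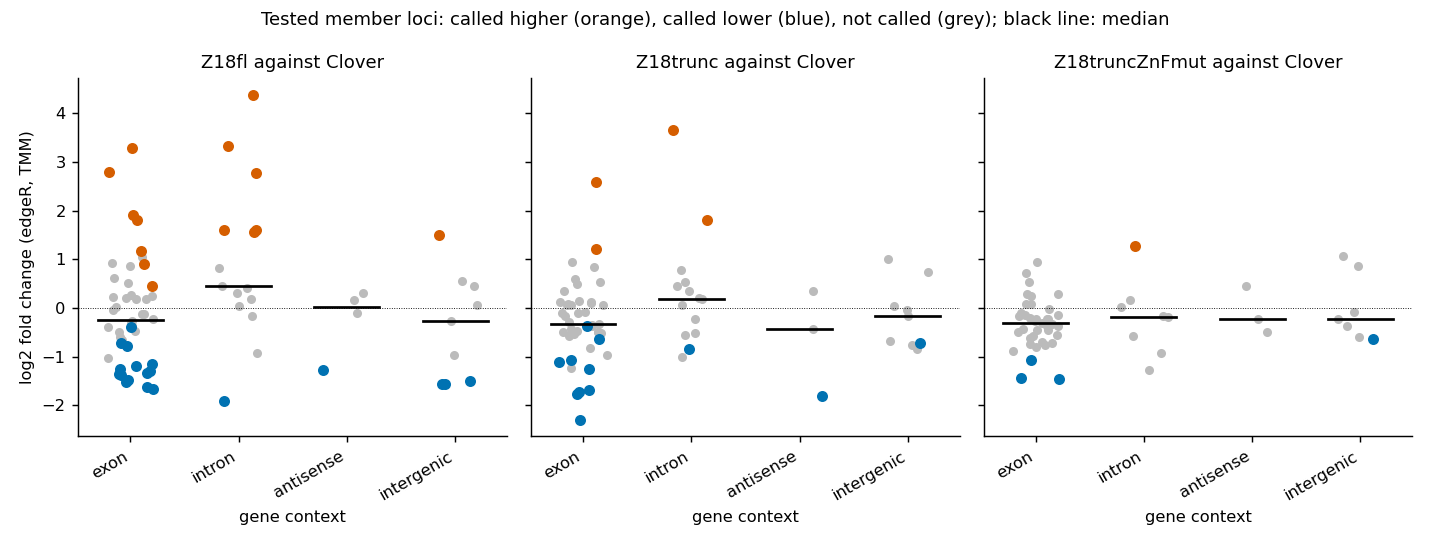
Log2 fold change (y axis, edgeR with TMM scaling) of each tested member locus by gene context (x axis) in the 3 constructs against Clover. Orange points were called higher and blue points lower at an adjusted p under 0.05, grey points were not called, and black lines are medians. In Z18fl the orange points reach 4.38 in introns and the blue points gather in exons, and few points are called in Z18truncZnFmut.

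A division of the exonic members, made after their values were seen, set elements that overlap coding or untranslated bases of a messenger RNA apart from those that lie in exons of non-coding transcripts alone. Of 27 members in messenger RNA, 1 was higher in Z18fl and 11 were lower (3.7% and 40.7%, beside 5.12% and 52.7% of all 2637 elements of that class), with a median log2 fold change of -0.46 against -0.83 for all. Of 19 in non-coding exons, 6 were higher and 3 lower (31.6% and 15.8%, beside 29.4% and 14.2% of all 957), with a median of 0.45 against 0.32. In Z18trunc against Clover the members' medians were -0.45 and 0.13, and in Z18truncZnFmut -0.43 and -0.01.

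Of the 14 members called higher in Z18fl, 8 lay under the filter's limit in every Clover library and were tested through Z18fl alone. Their p-values carry little weight. High Z18fl counts admitted them, so the counts, p-values and intervals given for them below are descriptive and not independent evidence of a rise. These 8 were the elements in PLEKHA5, RASA3, TRAPPC10, TBL1X, CLEC18B, TPGS1, IRF9 and LINC01291. The same held for 4 of the 19 lower calls (DNM1, SLC7A11, the ZNF808 copy and MER45R), with the groups exchanged. In Z18trunc against Clover it held for 2 of 4 higher calls (TPGS1 and the HSMAR2 in PSMA3-AS1) and 4 of 12 lower ones, DZIP3, DELE1, MER45R and an HSMAR1 in CCDC15-DT. In Z18truncZnFmut against Clover it held for 1 of 4 lower calls, MID1.

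The member with the largest fitted fold change in Z18fl was the HSMAR2 in the first of the sequences above, in an intron of PLEKHA5, which encodes a pleckstrin homology domain protein. It had 3, 0 and 0 counts in Clover, 52, 36 and 33 in Z18fl, 19, 12 and 22 in Z18trunc, and Z18truncZnFmut had 14, 18 and 6. All construct libraries lay above all Clover libraries, and Z18fl lay above the truncated forms. The fitted log2 fold change in Z18fl was 4.38 ± 0.66 (SE, adjusted p = 3.3e-05, edgeR). Since Clover held 3 counts in all, the ratio of summed counts per aligned fragment was 28.9 with an exact interval of 9.66 to 142, for counting error only. Against Z18fl, Z18trunc was lower by 1.27 on the log2 scale (SE 0.31, edgeR adjusted p = 0.019), a call that ended without replicate 1 or 2 of Z18fl or of Z18trunc.

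The other intronic members that rose in Z18fl came from 3 families. MER63C in RASA3, a Ras GTPase-activating protein gene, had 0, 3 and 0 counts in Clover and 16, 18 and 25 in Z18fl, a ratio per aligned fragment of 14.1 with an exact interval of 4.59 to 70.3. HSMAR2 in TRAPPC10, a gene for a subunit of a vesicle tethering complex, had 2, 3 and 0 against 21, 17 and 27, and only 13.6% of its counts mapped uniquely, so that its reads may be shared with other copies. Neither had enough counts to be tested in a truncated construct against Clover. MER91A in FKBP10, a gene for a collagen-folding isomerase, had 9, 1 and 10 against 40, 27 and 44, and fell back in Z18trunc to 16, 14 and 21, where the difference from Z18fl was -1.18 ± 0.29 (SE, edgeR adjusted p = 0.02). That call was lost without replicate 1 of Z18fl or replicates 1 or 2 of Z18trunc, while the call against Clover (1.61 ± 0.45, edgeR adjusted p = 0.0056) held in each of the 12 alternatives. HSMAR2 in TBL1X, a corepressor subunit gene, went from 3, 4 and 3 counts to 18, 15 and 23 (log2 fold change 1.61 ± 0.48, edgeR adjusted p = 0.009, not called without replicate 3 of Clover).

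Long non-coding RNAs carried most of the exonic members that rose. HSMAR1 in an exon of PSMA3-AS1, on chromosome 14, had 13, 8 and 7 counts in Clover, 72, 53 and 65 in Z18fl, 39, 38 and 39 in Z18trunc beside 17, 28 and 26 in Z18truncZnFmut. The constructs ordered from Z18fl through Z18trunc to Z18truncZnFmut to Clover without overlap between neighbours in CPM except between Z18truncZnFmut and Clover, whose nearest libraries stood at 0.703 and 0.779. Its log2 fold changes against Clover were 1.91 ± 0.32 in Z18fl (edgeR adjusted p = 8.7e-05) and 1.22 ± 0.35 in Z18trunc (0.01, not called without replicate 3 of Clover). A second mariner of the same host, HSMAR2 in an intron of PSMA3-AS1 and ARMH4, was the largest rise in Z18trunc, with 1, 0 and 2 counts in Clover, 24, 10 and 19 in Z18fl, 31, 24 and 18 in Z18trunc, with 19, 12 and 21 in Z18truncZnFmut. Its ratio of Z18trunc to Clover per aligned fragment was 17.5 with an exact interval of 5.75 to 86.7. These neighbours may lie on 1 transcript and are not independent. MER63A in the CLEC18B exon, printed above, had 1, 2 and 1 counts in Clover and 19, 16 and 41 in Z18fl (3.29 ± 0.62, edgeR adjusted p = 0.00026).

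HSMAR2 in an intron of the antisense RNA gene ZFPM2-AS1 was the only member called higher in all 3 constructs. Its counts were 11, 6 and 12 in Clover, 45, 56 and 52 in Z18fl, 65, 71 and 46 in Z18trunc beside 31, 28 and 50 in Z18truncZnFmut, and no construct library came down to a Clover library. The log2 fold changes were 1.55 ± 0.33 (adjusted p = 0.00075), 1.81 ± 0.32 (0.00021) and 1.27 ± 0.40 (0.03, edgeR), with the last lost when any Clover library or replicate 3 of Z18truncZnFmut was left out. MER91B in TPGS1, a tubulin polyglutamylase subunit gene, rose in Z18fl and Z18trunc, from 1, 2 and 1 counts to 14, 18 and 21 and to 17, 14 and 14, with 10, 4 and 13 in Z18truncZnFmut (2.80 ± 0.60 and 2.59 ± 0.65, edgeR adjusted p = 0.00087 and 0.004). HSMAR1 in an exon of LINC01239 went from 14, 10 and 18 counts in Clover to 47, 48 and 45 in Z18fl, with 20, 35 and 23 in Z18trunc (0.90 ± 0.31, edgeR adjusted p = 0.019, not called without replicate 1 or 2 of Clover). A FordPrefect copy in LINC01291, at 2, 7 and 7 counts against 23, 24 and 18, passed narrowly (1.18 ± 0.48, edgeR adjusted p = 0.047) and was not called without any 1 of the Clover libraries.

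Arthur1C on chromosome 17, a hAT-Tip100 element that lies in an exon of the unnamed long non-coding RNA ENSG00000273388, had the third most counts of all members. It had 105, 93 and 99 counts in Clover, 234, 237 and 257 in Z18fl, 200, 198 and 178 in Z18trunc, and Z18truncZnFmut had 163, 157 and 136. By mean CPM Z18fl was highest at 10.1, followed by Z18trunc at 8.04, Z18truncZnFmut at 6.58 and Clover at 5.78. The log2 fold change of Z18fl was 0.45 ± 0.15 (edgeR adjusted p = 0.014), lost without replicate 2 or 3 of Clover. This 1 element held 84.5% of the counts of its subfamily. The only intergenic member that rose was Arthur1B on chromosome 6, which held 8, 3 and 6 counts in Clover libraries and 19, 32 and 37 in those of Z18fl (1.51 ± 0.44, edgeR adjusted p = 0.0077).

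The members that fell in Z18fl lay mostly in messenger RNA. MARNA in FAM120AOS had 58, 42 and 34 counts in Clover, 27, 34 and 22 in Z18fl, 33, 43 and 37 in Z18trunc beside 45, 23 and 33 in Z18truncZnFmut. Library sizes were larger in the constructs, and in CPM no construct library reached a Clover library. It was lower in all 3 constructs, at -1.52 ± 0.29 (adjusted p = 0.00032), -1.07 ± 0.26 (0.0032) and -1.06 ± 0.29 (0.01, edgeR). Without replicate 1 of Clover or replicate 2 of Z18truncZnFmut the last was not called, nor was it when scaled by aligned fragments. MER63A in DZIP3, a ubiquitin ligase gene, was the only called member to meet every condition set for naming by fold change, with 32, 18 and 20 counts in Clover against 16, 18 and 23, 13, 12 and 11, and 19, 5 and 17. Its log2 fold changes were -1.14 ± 0.33, -1.77 ± 0.37 and -1.43 ± 0.42 (edgeR adjusted p = 0.0077, 0.0009 and 0.02). The first was lost without replicate 1 of Clover or of Z18fl, and the last without replicate 1 of Clover or replicate 2 of Z18truncZnFmut. Scaling by aligned fragments also ended the first.

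MARNA in the untranslated part of HRH1, the histamine H1 receptor gene, fell by 1.66 in Z18fl and by 1.69 in Z18trunc on the log2 scale (edgeR adjusted p = 0.0014 and 0.0022). Its counts were 14, 24 and 28 in Clover, 10, 15 and 12 in Z18fl and 12, 16 and 8 in Z18trunc, against 13, 28 and 27 in Z18truncZnFmut, where it was not called. Others that fell in Z18fl lay in UTRs of VIPR1, HSBP1, SLC7A11, XXYLT1, UCK2 and the zinc finger genes ZNF808 and ZNF701, with log2 fold changes between -1.48 and -0.77. Of these the calls at VIPR1 and HSBP1 held without any single library, and the others did not: SLC7A11 was lost without replicate 1 of Clover or any library of Z18fl, XXYLT1 without replicate 2 or 3 of either group, UCK2 without replicate 1 or 3 of Z18fl and the zinc finger copy without replicate 1 or 3 of Clover. Scaled by aligned fragments, the calls at SLC7A11, XXYLT1 and UCK2 were lost as well. DESeq2 did not call SLC7A11, XXYLT1 or the zinc finger copy. SLC7A11 encodes the cystine and glutamate exchanger, UCK2 a kinase of uridine and cytidine, and VIPR1 a receptor of vasoactive intestinal peptide. The 1 UTR member that rose, MamTip2 in IRF9, a subunit of an interferon-activated transcription factor, went from 0, 5 and 3 counts in Clover to 14, 18 and 20 in Z18fl (log2 fold change 1.82 ± 0.60, edgeR adjusted p = 0.017, not called without replicate 1 or 3 of Clover).

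Outside messenger RNA, 3 elements in an intron or outside genes fell in Z18fl beside the FordPrefect copy described further on. MER91C in an intron of DNM1, a dynamin gene, had 28, 22 and 23 counts in Clover, 10, 10 and 15 in Z18fl, 17, 27 and 28 in Z18trunc beside 26, 27 and 6 in Z18truncZnFmut (Z18fl against Clover -1.90 ± 0.34, edgeR adjusted p = 0.00018). Its Z18trunc call (-0.84 ± 0.32, edgeR adjusted p = 0.045) was lost without replicate 1 or 3 of Clover or any library of Z18trunc. DESeq2 and scaling by aligned fragments each ended that call too. At 36.9% A and T the DNM1 copy was the poorest in these bases of the MER91 copies above. An intergenic HSMAR1 on chromosome 5 had 43, 26 and 39 counts in Clover, 19, 20 and 27 in Z18fl, 45, 48 and 20 in Z18trunc beside 47, 39 and 57 in Z18truncZnFmut, and was called lower in Z18fl alone (-1.55 ± 0.29, edgeR adjusted p = 0.00022). Between Z18trunc and Z18fl it differed by 0.69 ± 0.30, which did not pass (edgeR adjusted p = 0.16). MER91A on chromosome 1 had 17, 17 and 21 counts in Clover against 12, 7 and 16 in Z18fl (-1.50 ± 0.38, edgeR adjusted p = 0.0033).

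The remaining members that fell in Z18fl lay in non-coding exons or antisense to a gene, and all 4 were lower in Z18trunc as well. MER63B in a non-coding exon of DELE1, a gene of mitochondrial stress signalling, had 19, 14 and 18 counts in Clover, 5, 19 and 14 in Z18fl and 8, 5 and 5 in Z18trunc, against 26, 12 and 21 in Z18truncZnFmut. Its log2 fold change was -2.30 ± 0.45 in Z18trunc (edgeR adjusted p = 0.00049, kept in all 12 alternatives) and -1.25 ± 0.44 in Z18fl (0.022, lost without replicate 1 or 3 of either group). DESeq2 and scaling by aligned fragments each ended the Z18fl call too. HSMAR2 antisense to KATNAL2 had 25, 27 and 26 counts in Clover against 12, 21 and 25 in Z18fl and 12, 10 and 17 in Z18trunc (-1.27 and -1.81, edgeR adjusted p = 0.0029 and 0.00046). The others were MER45C and MER45R in the unnamed non-coding genes ENSG00000260917 and ENSG00000288398, at -1.36 and -1.62 in Z18fl and -1.11 and -1.73 in Z18trunc. The Z18trunc call of MER45C was lost without replicate 3 of Clover or replicate 1 or 3 of Z18trunc, and that of MER45R without replicate 1 of Z18trunc. DESeq2 and scaling by aligned fragments each ended the Z18trunc call of MER45C too. In Z18truncZnFmut the fourth lower member was MER45A in the untranslated part of MID1, a ubiquitin ligase gene, with 10, 19 and 15 counts in Clover against 11, 6 and 8 (-1.46 ± 0.48, edgeR adjusted p = 0.039, lost without replicate 2 or 3 of Clover or any library of the construct). DESeq2 and scaling by aligned fragments each ended the MID1 call too.

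**Figure D4:**
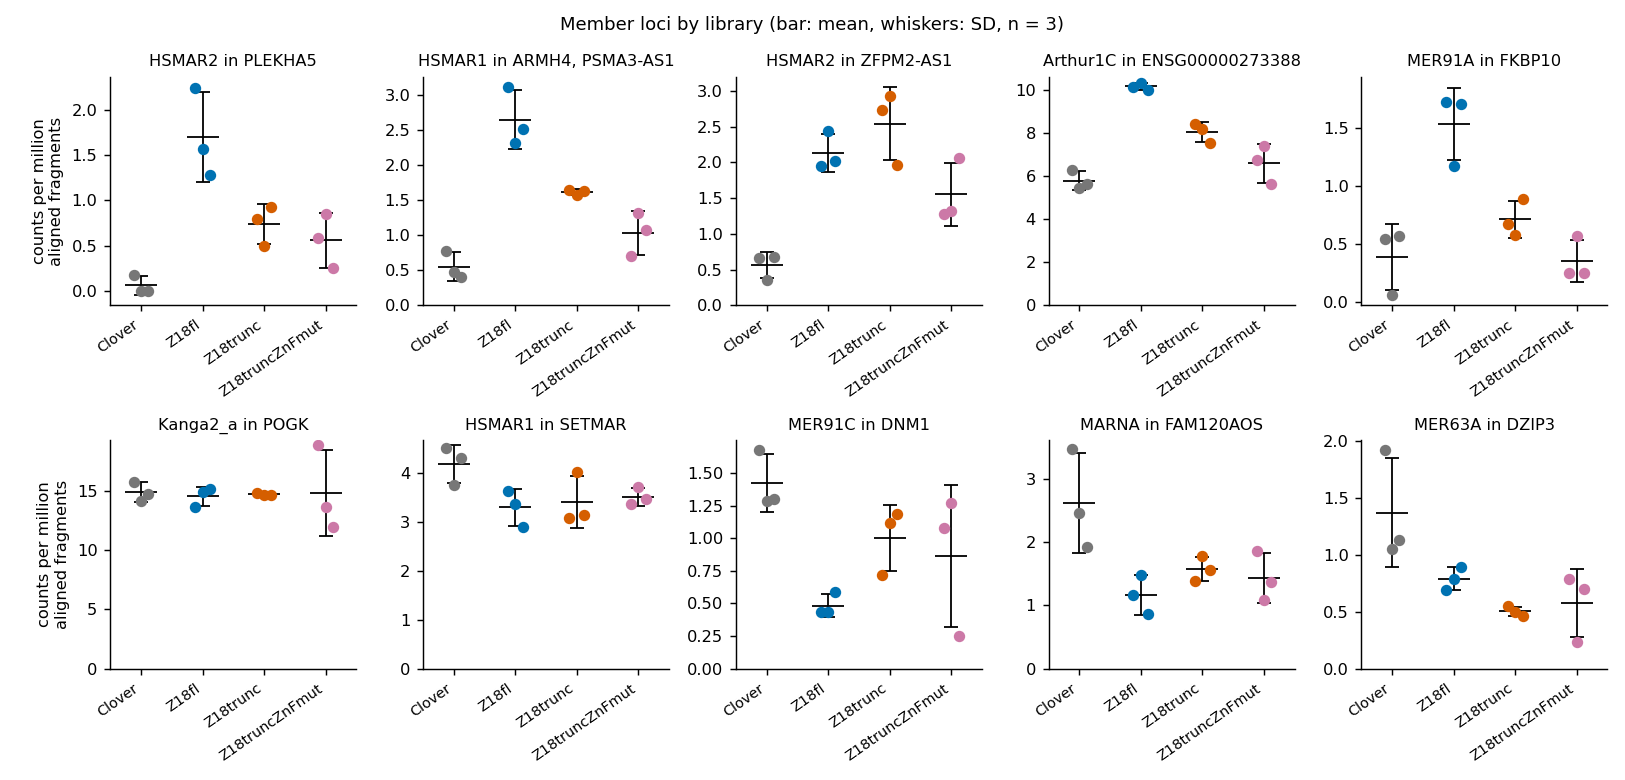
CPM (y axis) of 10 member loci in each library, by construct (x axis). Points are libraries, bars means and whiskers SD (n = 3). The upper row holds 5 loci called higher in Z18fl and the lower row 5 loci called lower there with TMM scaling, and the POGK copy sits between 14.5 and 14.9 on average in all groups.

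Neither of the elements named for their coding sequence rose. The Kanga2_a in POGK had 263, 242 and 261 counts in Clover, 315, 341 and 389 in Z18fl, 353, 355 and 347 in Z18trunc, with 456, 290 and 290 in Z18truncZnFmut. In CPM the means were 14.9, 14.5, 14.7 and 14.8, and the groups overlapped. Relative to the bulk of elements it was lower in Z18fl by 0.40 and in Z18trunc by 0.36 on the log2 scale (edgeR adjusted p = 0.012 and 0.028), calls that were lost when scaled by aligned fragments (-0.03 and -0.02) and when any library of the construct was left out, and for Z18trunc also without replicate 1 or 3 of Clover. The HSMAR1 in SETMAR (chr3:4316073-4317322), which overlaps 1032 coding bases of that histone methyltransferase and transposase fusion, had 75, 64 and 76 counts in Clover, 84, 77 and 74 in Z18fl, 73, 97 and 74 in Z18trunc, and Z18truncZnFmut had 81, 79 and 84. Its log2 fold changes were -0.71 ± 0.19 in Z18fl and -0.64 ± 0.19 in Z18trunc (edgeR adjusted p = 0.0047 and 0.011), or -0.35 and -0.30 and not called by aligned fragments. The call in Z18fl was lost without its replicate 3, and the call in Z18trunc without its replicate 1.

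Other mariners with many counts were not called relative to the bulk of elements. HSMAR1 in an exon of FGD5-AS1, a long non-coding RNA, had 81, 92 and 73 counts in Clover and 172, 158 and 192 in Z18fl. HSMAR2 in an exon shared by THAP9-AS1 and SEC31A had 94, 79 and 77 against 167, 182 and 186. THAP9-AS1 lies beside THAP9, itself a gene derived from a transposase. Their log2 fold changes in Z18fl were 0.24 ± 0.16 and 0.26 ± 0.16 (edgeR adjusted p = 0.23 and 0.19), or 0.60 and 0.62 by aligned fragments (0.0058 and 0.005). HSMAR2 in an intron of API5, an apoptosis inhibitor gene, had 60, 56 and 83 against 120, 104 and 145 and a log2 fold change of 0.04 ± 0.18 (edgeR adjusted p = 0.87).

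MADE1 elements at genes of the MIR548 family carried few counts. GENCODE genes of the MIR548 family overlapped 16 members, 14 of them MADE1, and these 14 held 29 counts in all over the 12 libraries, 11 of them on a single element. The MADE1 at MIR570 printed above, chosen after its values were seen, held 211 counts in all. It had 8, 15 and 12 counts in Clover, 12, 13 and 17 in Z18fl, 20, 18 and 30 in Z18trunc beside 18, 20 and 28 in Z18truncZnFmut. Its groups overlapped, and it was not called in Z18fl (log2 fold change -0.58 ± 0.41, edgeR adjusted p = 0.24) or in Z18trunc (0.14 ± 0.40, 0.82). Since it also lies in an exon of MUC20-OT1, reads from that RNA and from the microRNA precursor cannot be told apart.

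FordPrefect, a hAT-Tip100 subfamily, needed care because most of its counts came from ribosomal DNA. The members with the second and the seventh most counts, on an unlocalised chromosome 22 scaffold and at chr21:8205786-8206586, were 801 bases long, of identical sequence and 24.5% A and T, and 599 bases of the chromosome 21 copy lay in the ribosomal precursor gene RNA45SN2 of RefSeq (GRCh38.p14). Its first 120 bases are printed to show how unlike a typical member it is.
FordPrefect chr21, first bases: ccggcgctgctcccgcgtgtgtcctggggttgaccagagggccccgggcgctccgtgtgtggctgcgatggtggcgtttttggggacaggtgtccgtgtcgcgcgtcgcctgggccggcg

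The counter split reads between these copies differently from library to library. The scaffold copy had 372, 356 and 255 counts in Clover but 275, 72 and 264 in Z18fl, and the chromosome 21 copy 82, 45 and 70 in Clover but 36, 263 and 92 in Z18fl. The library with 72 on the first was the one with 263 on the second. The scaffold copy was called lower in Z18fl (-1.56 ± 0.28, edgeR adjusted p = 0.00016), in Z18trunc (-0.72 ± 0.17, 0.0022) and in Z18truncZnFmut (-0.63 ± 0.17, 0.013), while the chromosome 21 copy was not called in any of them. The Z18trunc call was lost without its replicate 1, and the Z18truncZnFmut call without replicate 1 or 2 of Clover or of the construct. Both were also lost when scaled by aligned fragments. Locus calls on the copies are therefore uncertain. Their sum was 454, 401 and 325 counts in Clover, 311, 335 and 356 in Z18fl, 431, 408 and 649 in Z18trunc, with 411, 400 and 447 in Z18truncZnFmut. In CPM the sum was 23.0 ± 4.43 in Clover and 14.0 ± 0.592 in Z18fl, with no overlap (exact permutation p = 0.1), and 20.8 ± 5.77 and 18.1 ± 0.951 in the truncated forms, which overlapped Clover (exact permutation p = 0.6 and 0.3). Ribosomal RNA was depleted from these samples, and its part in the FordPrefect values was not tested.

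**Figure D5:**
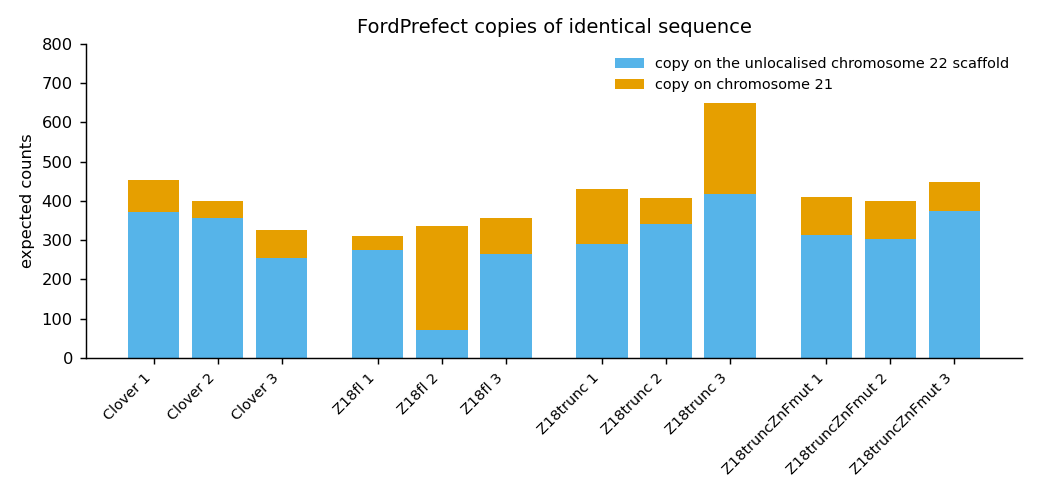
Expected counts (y axis) of the FordPrefect copies of identical sequence in each library (x axis), stacked. In replicate 2 of Z18fl the split is turned round, with 72 counts on the scaffold copy and 263 on the chromosome 21 copy, while the sum stays between 311 and 356 in the Z18fl libraries.

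Direct comparisons between the ZC3H18 forms gave few member calls. In Z18trunc against Z18fl, 7 members were lower and 0 higher, where 3.14% and 2.62% of all tested elements were called. At an unadjusted p under 0.05, 6 members were higher and 19 lower of 114, beside 4426 of all 19424 elements in either direction. DESeq2 called 0 higher and 2 lower, beside 312 and 294 of all elements. The median log2 fold change of the 114 members tested was -0.29, beside 0.01 over all 19424 elements and -0.25 for hAT-Charlie and TcMar-Tigger. By context the members' median was -0.51 in introns and -0.21 in exons.

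The 7 that fell in Z18trunc lay in every Z18fl library above every Clover library in CPM. They were selected for high values in these same Z18fl libraries, so this order is partly built in and is not separate evidence. They were the PLEKHA5, FKBP10, PSMA3-AS1 exon and LINC01239 elements described above and 3 others. MER63A in CAPN2, a calpain gene, had 3, 1 and 1 counts in Clover, 12, 30 and 22 in Z18fl, 9, 0 and 7 in Z18trunc beside 8, 7 and 3 in Z18truncZnFmut (-2.05 ± 0.55, edgeR adjusted p = 0.03). MER63A in CLEC18B, a lectin gene, had 1, 2 and 1, then 19, 16 and 41, then 8, 12 and 4, then 7, 10 and 10 (-1.70 ± 0.41, adjusted p = 0.016, edgeR). An intergenic MER63B on chromosome 18 had 1, 1 and 3, then 13, 21 and 16, then 8, 3 and 0, then 12, 6 and 5 (-2.24 ± 0.59, adjusted p = 0.026, edgeR). The CAPN2 and MER63B copies were tested through Z18fl alone, being under the filter's limit in every Z18trunc library, so their p-values carry little weight. Each of the 7 calls was lost under some alternative, among them leaving out replicate 2 of Z18fl or of Z18trunc for the CAPN2 copy, replicate 3 of Z18fl or replicate 1 or 3 of Z18trunc for the CLEC18B copy, and replicate 1 or 2 of Z18fl or 2 or 3 of Z18trunc for the MER63B copy. The PSMA3-AS1 element (-0.78 ± 0.22, edgeR adjusted p = 0.034) was lost without replicate 1 or 2 of Z18fl or any library of Z18trunc, and the LINC01239 element (-0.93 ± 0.26, edgeR adjusted p = 0.036) without replicate 1 or 2 of Z18fl or 1 or 3 of Z18trunc.

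The zinc finger mutation in the truncated protein gave no member call. In Z18truncZnFmut against Z18trunc 0 of 83 members were higher and 0 lower by edgeR, where 0.368% and 0.35% of all 16846 elements were called. At an unadjusted p under 0.05, 5 members were higher and 2 lower of 83, beside 2419 of all 16846 elements in either direction. DESeq2 called 0 members in either direction, beside 88 higher and 79 lower of all elements. The members' median log2 fold change was -0.01, and simulated 2-fold changes were recovered in 25% of loci in this comparison, so changes of that size would mostly go unseen.

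Summing counts by subfamily brought more members into the test, since 49 of the 53 subfamilies could be tested against Clover. In Z18fl, 5 were higher and 5 lower, where 19.9% and 20.5% of all 923 subfamilies were called. This balance depended on the scaling, since by aligned fragments 22 of 49 members were higher and 1 lower in Z18fl. In Z18trunc 16 of 50 were higher and 0 lower. The shift was general: over all subfamilies 500 were higher and 39 lower of 927 in Z18fl, and 417 and 11 of 932 in Z18trunc. HSMAR2, the subfamily with the most counts, had 457, 397 and 398 counts in Clover, 944, 988 and 1100 in Z18fl, 976, 976 and 971 in Z18trunc, and Z18truncZnFmut had 775, 678 and 1517. Its log2 fold change in Z18fl was 0.32 ± 0.07 (edgeR adjusted p = 0.0023), whereas HSMAR1, with 518, 446 and 430 counts against 889, 800 and 973, stood at -0.02 ± 0.08 (0.85), or at 0.45 by aligned fragments.

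Arthur1, of hAT-Tip100, was called higher in both Z18fl and Z18trunc. It had 30, 42 and 38 counts in Clover, 115, 103 and 126 in Z18fl, 83.5, 111 and 183 in Z18trunc beside 76, 119 and 641 in Z18truncZnFmut, with log2 fold changes of 0.69 ± 0.18 (adjusted p = 0.0062) and 0.78 ± 0.24 (0.023, edgeR). The latter was lost without replicate 1 or 3 of Clover or replicate 3 of Z18trunc. Its counts were spread over 617 members, none with more than 4.38% of them, so that no element carried the subfamily. MER63C (0.72 ± 0.26), MamTip3 (0.57 ± 0.20) and Arthur1C (0.34 ± 0.11) were the others higher in Z18fl. MER63C was not called without replicate 1 or 3 of Clover or 1 or 2 of Z18fl, nor MamTip3 without replicate 2 or 3 of Clover or 1 of Z18fl.

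Among the subfamilies that were lower in Z18fl, FordPrefect and Kanga2_a rested on the copies described above. FordPrefect fell by 1.03 (SE 0.10, edgeR adjusted p = 1.0e-06), and the identical copies held 82.1% to 94.7% of its counts in the Clover and Z18fl libraries. The remaining FordPrefect members had 25.5, 30 and 21 counts in Clover and 53, 73 and 60 in Z18fl. Kanga2_a, 74.7% of it the POGK copy, stood at -0.39 ± 0.08 (edgeR adjusted p = 0.001), MARNA at -0.34 ± 0.10, MER45C at -0.50 ± 0.16 and MamTip2 at -0.27 ± 0.10. No element held more than 14.6% of the counts of these last 3. MARNA and MER45C were not called without replicate 3 of Clover or 1 of Z18fl, nor MamTip2 without any 1 of the Clover libraries or replicate 1 or 3 of Z18fl. In Z18trunc FordPrefect, Kanga2_a and MARNA (not called without replicate 3 of Clover) were lower, at -0.56, -0.41 and -0.42, where 14.5% of all subfamilies were called higher and 12% lower. Of these, the values of Kanga2_a and MARNA turned to 0.09 and 0.13 in Z18fl and to 0.08 and 0.08 in Z18trunc when scaled by aligned fragments. With that scaling MamTip2 stood at 0.20 and MER45C at -0.03 in Z18fl, and FordPrefect at -0.06 in Z18trunc, none of them called. FordPrefect stayed lower in Z18fl, at -0.56 (edgeR adjusted p = 0.0012). With uniquely mapping reads neither FordPrefect call was kept.

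The other subfamilies that average at least 100 counts a library were not called in Z18fl or Z18trunc. They were MER91A, MER91B, MER115, MER45A, MER96, MER96B, Arthur1A and Arthur1B of hAT-Tip100, MER63A, MER63B, MER81, MER94 and BLACKJACK of hAT-Blackjack, and HSMAR1 and MADE1, and their log2 fold changes in Z18fl lay between -0.20 for MER63B and 0.23 for MER94. Scaled by aligned fragments, which shifted subfamilies in general as given above, 12 of these 15 were called higher in Z18fl and 7 in Z18trunc, with 0 lower. The log2 fold changes in Z18fl then ran from 0.27 for MER63B to 0.70 for MER94 (edgeR adjusted p = 0.13 and 0.00043).

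No member subfamily was called in the remaining comparisons by edgeR. In Z18truncZnFmut against Clover, where 1.29% of 930 subfamilies were called, 2 members were higher and 3 lower at an unadjusted p under 0.05, and DESeq2 called 1 each way. In Z18trunc against Z18fl (4.08% of 956) the counts were 2 and 3, and DESeq2 called 1 higher. In Z18truncZnFmut against Z18trunc (0% of 967) they were 0 and 0, and DESeq2 called 0. Over all subfamilies 172, 184 and 49 had an unadjusted p under 0.05 in these comparisons, in either direction. DESeq2 called 51 of all subfamilies higher and 28 lower in the first, 37 and 20 in the second and 0 in the last. Without replicate 3 of Z18truncZnFmut, edgeR called 98 higher and 52 lower of all 903 subfamilies against Clover. Of the 48 members tested it then called 0 higher and 1 lower. Against Z18trunc it called 0 of all 969 subfamilies without that library.

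Called members differed in length. The 14 members higher in Z18fl had a median length of 978 bases and 8 of them exceeded 900 bases, against 232 bases and 2 of 19 for those that were lower. Their median content of A and T was 56.8% and 53.4%, beside 59.7% for the 41 members not called. Over all elements tested the lengths were 1313 and 297 bases. Across the 74 members tested Spearman's rho of the log2 fold change was 0.22 with length and 0.06 with A and T content, and over all elements 0.35 and 0.25. These are descriptions over elements that share libraries, and longer elements collect more reads and pass the filter more easily.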

How the data were processed

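The measurements were own-strand counts of annotated repeat elements in 12 PAR-CLIP libraries of 4 constructs. According to the submitters' notes and methods, the authors trimmed reads with cutadapt 4.6 and counted them per element and strand with SQuIRE (version not given in the sources used here) on hg38 with the RepeatMasker annotation, 1 file per library. The deposited expected counts hold unique reads plus a share of multimapping reads set by expectation maximization, which is uncertain among near-identical copies. The deposited counts of uniquely mapping reads and of aligned fragments are whole numbers. The authors also gave per element the percent of its aligned reads assigned to it, and a divergence score, the mismatches per 1000 bases against the repeat consensus.

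Expected counts were rounded and tested in edgeR 4.0.16 (quasi-likelihood, R 4.3.3) with TMM scaling over all elements of the 6 classes with a minimum count of 10 in enough libraries and a total of 15, each comparison on its own 6 libraries, with Benjamini-Hochberg adjustment over all elements tested and a threshold of 0.05. The same test was run on sums by subfamily. Family sums per 1000000 aligned fragments, their log2 ratio to related families and intron shares were compared by two-sided exact permutation of libraries. Gene context came from GENCODE 44. DESeq2 1.42.0, aligned fragments as library size, no filter, unique reads, a replicate block, 1 fit of all 12 libraries and leaving out each library were the alternatives, and the leaving out of the FordPrefect copies of identical sequence was chosen after seeing the data.

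Members and lists were chosen with earlier results of these data known. Named were subfamilies averaging 100 counts or called in a comparison, the 8 loci with the most counts, the called loci that changed most among those whose groups do not overlap, with a mean of at least 20 counts and an assigned share of at least 90 percent in the higher group, HSMAR1 in SETMAR exons and MADE1 at MIR548 genes with a mean of at least 5 counts. All other loci named, the MIR570 locus and the exon classes were chosen after their values were seen. Replicates differed by more than sampling noise, at a chi-square per degree of freedom of 1.72 to 3.15. Tests on simulated data recovered 23% to 38% of 2-fold and 83% to 96% of 4-fold changes of loci, with 0 in the wrong direction. Intervals cover counting error only.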

Additional observations from a re-analysis of the deposited data

Results flagged for a closer look

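Reads on the strand opposite to the members were outside the comparisons above. They amounted to 244, 223 and 209 counts per 1000000 aligned fragments in Clover (mean 225.5 ± 17.4, SD, n = 3). The means were 269.5 ± 1.90 in Z18fl, 281.8 ± 47.5 in Z18trunc and 421.6 ± 281 in Z18truncZnFmut, all above the control. Replicate 3 of Z18truncZnFmut held 745.9 and its other libraries 246.9 and 271.9, so the mean of that construct rested on 1 library.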

How the results depend on the processing

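The counts of calls moved under several alternatives. With aligned fragments as library size the higher and lower loci numbered 27 and 11 in Z18fl against Clover, 11 and 6 for Z18trunc and 3 and 1 for Z18truncZnFmut, and the higher and lower subfamilies 22 and 1 in Z18fl and 16 and 0 in Z18trunc. Calls over all elements shifted the same way with this scaling, as given above. With no filter the loci were 25 and 7, 9 and 3, and 0 lower in Z18truncZnFmut, 4 lower in Z18trunc against Z18fl and 1 higher in Z18truncZnFmut against Z18trunc, and 1 subfamily was higher in Z18trunc against Z18fl. Unique reads gave 6 higher loci in Z18fl, 1 higher in Z18trunc against Z18fl, 3 higher subfamilies in Z18fl and 1 lower in Z18trunc against Z18fl. DESeq2 gave 0 higher loci in Z18truncZnFmut, 2 lower in Z18trunc against Z18fl, 2 higher subfamilies in Z18fl, 1 higher and 1 lower in Z18truncZnFmut and 1 higher in Z18trunc against Z18fl. A joint fit of all 12 libraries gave 1 lower locus in Z18trunc against Z18fl, 1 higher in Z18truncZnFmut against Z18trunc, and 0 and 2 subfamilies for Z18fl, 0 and 1 for Z18trunc and 2 and 2 for Z18truncZnFmut. The cause of these shifts was not tested.

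Replicate numbers did not pair the libraries, with correlations of deviations between -0.096 and 0.052 over 6133 loci. With the replicate block, 1 locus was higher in Z18trunc against Z18fl and 2 subfamilies were higher in Z18trunc against Clover, and the other counts of calls stayed within 1.5 times.

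Directions turned as follows. Scaled by aligned fragments, the subfamilies Kanga2_a, MARNA and MamTip2 stood at 0.0852, 0.131 and 0.203 in Z18fl, and Kanga2_a and MARNA at 0.0847 and 0.0845 in Z18trunc. With no filter the POGK copy stood at 0.019 in Z18trunc. As a share of element counts in percent, the 4 families differed by -0.000911 in Z18fl against Clover, by -0.0583 in Z18trunc and by -0.0574 between Z18trunc and Z18fl. The differences were -0.0152, -0.0284 and -0.0131 in the same order for hAT-Tip100, and -0.00471 for hAT-Blackjack in Z18trunc. For TcMar-Mariner they were -0.0112 in Z18trunc, -0.0207 in Z18truncZnFmut and -0.00952 between these constructs, and for TcMar-Tc2 -0.00737, -0.014 and -0.000239 in Z18fl, Z18trunc and Z18truncZnFmut. Between Z18trunc and Z18fl the family sum differed by -9.40 CPM in unique reads and by -5.56 without the FordPrefect copies of identical sequence. The log2 ratio to related families in Z18truncZnFmut against Clover was 0.0189 in unique reads and 0.0309 without those copies.

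Leaving out each library in turn, loci called higher and lower in Z18fl ranged from 10 to 20 and 12 to 22. Those higher and lower in Z18trunc ranged from 3 to 8 and 5 to 13, in Z18truncZnFmut from 0 to 2 and 0 to 4, and in Z18trunc against Z18fl from 0 to 1 and 2 to 8, and those higher in Z18truncZnFmut against Z18trunc from 0 to 1. Subfamilies ranged from 3 to 5 and 2 to 6 in Z18fl, 0 to 2 higher in Z18trunc, 0 to 1 and 0 to 2 in Z18trunc against Z18fl and 0 to 1 lower in Z18truncZnFmut. The family sum ranged from -24.6 to 16.3 CPM between Z18trunc and Z18fl and from -44.8 to 200.2 between Z18truncZnFmut and Z18trunc, and the log2 ratio in Z18truncZnFmut against Clover from -0.0942 to 0.00641. By family, Z18trunc against Z18fl ranged from -3.70 to 1.26 for TcMar-Tc2, -5.88 to 1.09 for hAT-Blackjack and -8.67 to 18.7 for hAT-Tip100, and Z18truncZnFmut against Z18trunc from -15.7 to 21.7 for TcMar-Mariner, -6.69 to 46.5 for hAT-Blackjack and -22.5 to 109.4 for hAT-Tip100. The lowest of these CPM values came without replicate 3 of Z18trunc and without replicate 3 of Z18truncZnFmut. The FordPrefect copy on chromosome 21 ranged from -0.79 to 0.81 in Z18fl and from -0.14 to 0.82 in Z18trunc. Of the member calls against Clover, 9 higher and 5 lower loci in Z18fl and 3 and 3 in Z18trunc kept their call in every alternative in which they were tested. Of these, 4, 5, 1 and 2 were tested in all 12 alternatives. In Z18fl the kept calls at PLEKHA5, RASA3, TRAPPC10, CLEC18B, TPGS1 and DNM1 were on loci tested through their higher group alone. In Z18trunc this held for TPGS1, the HSMAR2 in PSMA3-AS1, DZIP3 and DELE1. For such loci a kept call is not separate evidence. None of the 5 calls in Z18truncZnFmut, of the 7 in Z18trunc against Z18fl or of the subfamily calls in Z18fl (5 higher and 5 lower) and Z18trunc (1 and 3) was kept in every alternative.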
